A study of Mus musculus with 6 samples.

Results

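The comparison described here followed sorted pancreatic epithelium labelled Pbx mutant from embryonic day 12.5 (E12.5) to E14.5. It rests on 2 of the 6 libraries of the study, 1 at each stage, and both were taken by their labels. Of 24062 genes in the count tables, 12167 reached 5 CPM (read counts scaled to library size) in at least 1 of the 2 libraries and are called measured. The dorsal pancreatic buds carried the mTmG reporter, in which cells are red (Tomato) until Cre recombinase turns them green (GFP), and red and green cells were separated by flow cytometry. The mutant genotype includes 1 copy of that reporter, Nkx2.5-Cre, which expresses Cre where Nkx2-5 is active, and Pbx2+/-, and is not given in full here. Control libraries, used for comparison, came from mTmG embryos at the same 2 stages. For those the labels name no Cre and do not state the source of GFP cells, so how the control fractions were told apart is not known from them. Frozen sorted fractions were pooled before RNA was purified, so each library is a pool of cells and not an animal.

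The labels do not say which alleles the sorted epithelial cells themselves had lost. Nkx2-5 is known from the mesenchyme beside the bud, and its transcript stood at 3.68 CPM at E12.5 and 0.862 CPM at E14.5 in the epithelium labelled mutant, against 66.8 CPM in the mutant mesenchyme at E12.5. Pbx2, a homeodomain protein that binds DNA with Hox and Meis partners, stood at 49.7 CPM at E12.5 and 47.3 CPM at E14.5. In control epithelium Pbx2 stood at 54.5 and 34.0 CPM. In mesenchyme at E12.5 it stood at 56.0 CPM in the mutant and 89.9 CPM in control. A mutant copy can still be transcribed and each level is that of 1 pool, so these levels do not settle the genotype. The 2 epithelium libraries are therefore called the libraries labelled mutant.

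Between these stages the mouse pancreas enters the secondary transition. Multipotent cells at the branch tips become committed to the acinar fate and load with digestive enzymes, under the bHLH factor Ptf1a and its partner Rbpjl. Cells of the trunk keep Sox9 and either line the future ducts or switch on Neurog3, which starts the endocrine cascade that ends in hormone cells. Glucagon cells appear early in dorsal buds, while the main wave of insulin cells starts with the transition.

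Counts on genes came to 14921268 at E12.5 and 14032569 at E14.5 in the epithelium labelled mutant, and the deepest of the 6 libraries had 20276045. Since each group is 1 library, the ratios are unreplicated and carry no p-value. A ratio is printed with its exact 95% interval for counting error alone. The words higher and lower are used of measured genes that differed by 2-fold or more with an interval that left out 1. The interval leaves out variation between pools, which 1 library a group cannot measure. Genes were also grouped by the geometric mean of their 2 CPM values, which leaves out genes with no read in 1 library. At 5 to 10 CPM the log2 ratios had an SD of 1.03 across genes, where counting alone gives 0.20. At 100 CPM or more the SD was 0.38, where it gives 0.041. These SDs include the change between the stages, so they do not measure the error of a ratio. In these bulk libraries fewer cells of a type and less RNA per cell cannot be told apart.

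Of the 12167 measured genes 763 were higher at E14.5 (6.27%) and 717 lower (5.89%), with a median log2 ratio of 0.00 over all of them. Every count of calls over the measured members of a list is read against those shares. Of the 11593 genes already at 5 CPM or more at E12.5, 387 were higher and 717 lower (median -0.03). List counts limited to members at that level are read against these. Of the gene groups of the pancreas itself, the endocrine cascade, the hormones, the granule proteins and the digestive enzymes held most of the higher calls. Acinar transcription factors, general epithelial genes and cell cycle genes were mostly within 2-fold between the stages, and most of the lower calls were among the progenitor factors and Notch genes, with 5 each.

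**Figure D1:**
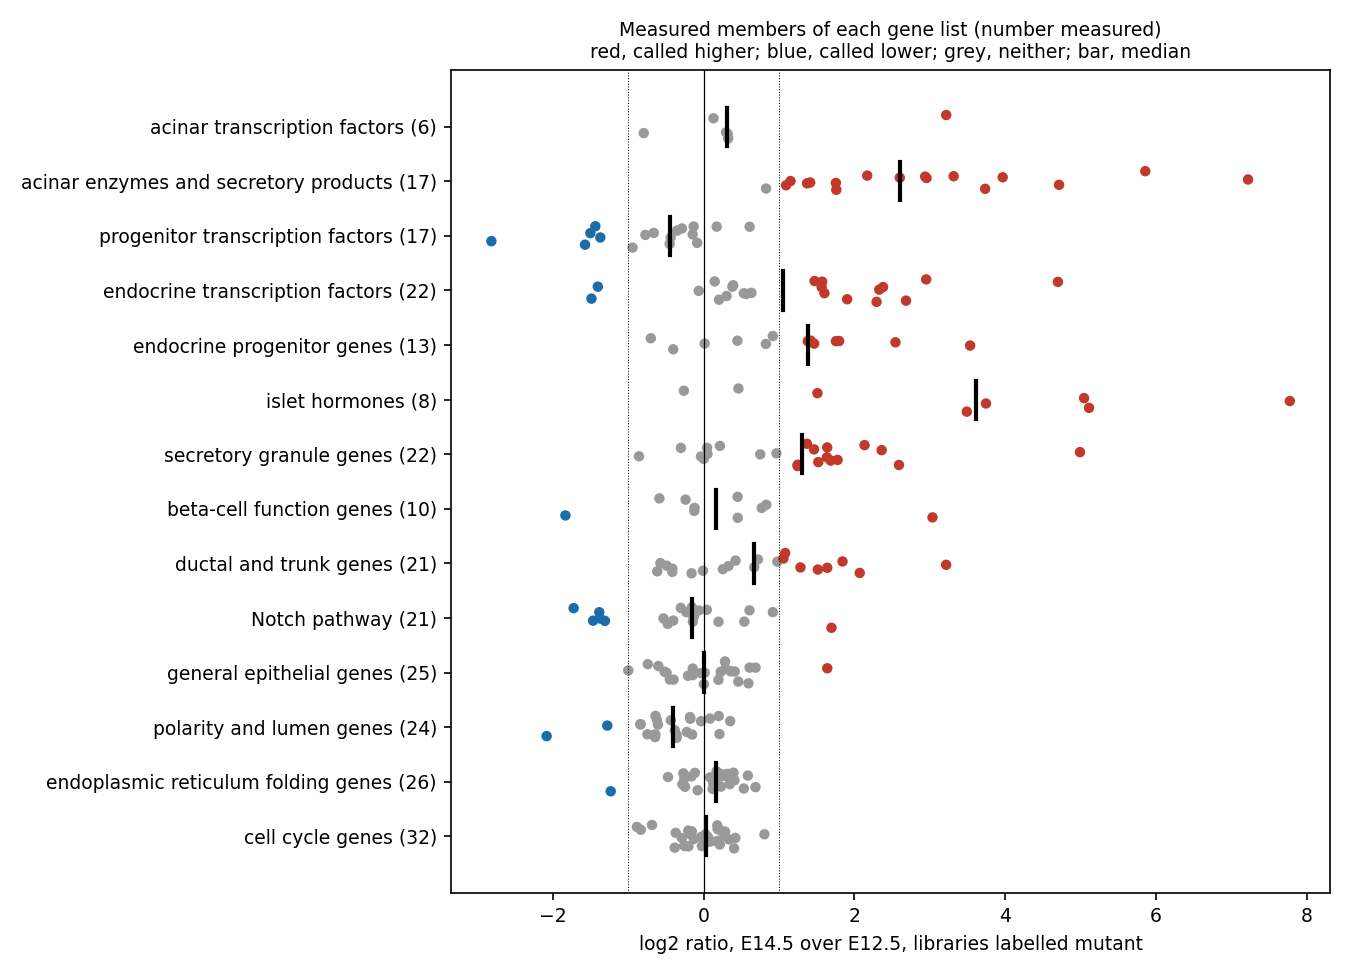
Log2 ratio of E14.5 over E12.5 in the epithelium labelled mutant for each measured member of the gene lists of the pancreas (1 point a gene, number measured in parentheses, black bar at the median, dotted lines at 2-fold). The medians of the digestive enzymes (2.60) and the hormones (3.62) lie farthest to the right. Those of the progenitor factors (-0.45) and polarity genes (-0.41) lie to the left of 0. The 2 medians to the right include members measured only through E14.5, which had to differ. Over members already at 5 CPM at E12.5 the medians were 1.58 for enzymes, 0.99 for hormones and 1.25 for granule genes.

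The endocrine cascade was higher at E14.5 at its start and along its early steps. Of 22 measured endocrine transcription factors 11 were called higher and 2 lower (median log2 ratio 1.05), and 19 of the 22 were already at 5 CPM or more at E12.5, of which 8 were higher (median 0.57). Neurog3, on chromosome 10 from 62133090 to 62134763 (mm10), stood at 45.5 CPM at E12.5 and 223 CPM at E14.5, 4.9-fold higher (4.51 to 5.33). Its direct target Neurod1, a bHLH factor of all endocrine lineages, stood at 15.2 and 76.3 CPM, 5.03-fold higher. The level of Neurog3 at E14.5 was also above that of the control library at the same stage, which stood at 187 CPM. In each gene of the early cascade named here the E14.5 value was several times the E12.5 value.

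Fev, an ETS factor that marks precursors downstream of Neurog3, stood at 7.16 CPM at E12.5 and 46.0 CPM at E14.5, 6.43-fold higher. Pax4, which favours the beta and delta fates, stood at 8.80 and 45.8 CPM, 5.2-fold higher. Myt1, a zinc finger factor that acts with Neurog3, stood at 2.56 and 19.8 CPM, 7.74-fold higher. Insm1, Pax6, Rfx6, St18, Neurod2 and Pou3f4 completed the higher calls. Some factors that endocrine cells of several kinds express were not called: Isl1 stood at 101 and 133 CPM and Nkx2-2 at 82.7 and 91.6 CPM. The 2 lower members, Peg3 (1232 to 440 CPM) and Sox11 (144 to 54.6 CPM), are also broadly expressed outside the endocrine lineage.

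Of 13 endocrine progenitor genes 7 were higher, none was lower and the median was 1.38. Cck, which encodes cholecystokinin and is transcribed in early endocrine cells, stood at 7.03 CPM at E12.5 and 41.0 CPM at E14.5, 5.83-fold higher. Cer1, a secreted antagonist of BMP and Nodal, stood at 1.31 and 15.2 CPM, 11.6-fold higher. The cell cycle inhibitor Cdkn1a stood at 88.6 and 157 CPM, and the Notch ligand Dll1 at 31.6 and 23.9 CPM, both within 2-fold. Tubb3, at 19.1 and 66.2 CPM, is a neuronal tubulin as well as an endocrine progenitor gene, and neural markers moved the same way as described further on.

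The promoter of Neurod1 is shown because Neurog3 and other bHLH factors bind E-boxes, whose letters are CANNTG. The sequence is from RefSeq (GRCm38.p6, chr2:79456587-79456886, minus strand, 250 bases before to 50 after the start, read along the gene), with the 1 match in capitals. The letters stand on either strand in 72.3% of all promoters there, so a match is a description of the sequence and not a binding site.
Neurod1 promoter: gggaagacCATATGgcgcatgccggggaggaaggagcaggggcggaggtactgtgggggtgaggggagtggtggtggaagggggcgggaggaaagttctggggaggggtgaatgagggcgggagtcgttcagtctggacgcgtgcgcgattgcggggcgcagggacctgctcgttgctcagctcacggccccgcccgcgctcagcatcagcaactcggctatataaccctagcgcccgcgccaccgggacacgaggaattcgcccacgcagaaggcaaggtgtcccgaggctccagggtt

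Insulin transcripts appeared between the stages while glucagon stayed near its level. Ins2 stood at 0.526 CPM at E12.5 and 115 CPM at E14.5, 219-fold higher (111 to 508, from 8 counts at E12.5). Ins1 stood at 1.18 and 40.9 CPM, 34.6-fold higher (21.7 to 58.7). Gcg stood at 741 and 619 CPM and was the most abundant hormone transcript at both stages. It was within 2-fold, as was Pyy, the gut peptide of early endocrine cells, at 128 and 176 CPM.

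Of the 8 measured hormones 6 were higher, none lower, and the median was 3.62. Of these, 4 reached 5 CPM only at E14.5, so those had to differ. Of the 4 that were already at 5 CPM at E12.5, 2 were higher (median 0.99). Iapp, the amyloid peptide secreted with insulin, stood at 10.1 and 135 CPM, 13.4-fold higher. Ghrl, which encodes ghrelin of epsilon cells, stood at 4.93 and 55.4 CPM, 11.2-fold higher. Somatostatin (Sst) stood at 0.329 and 10.8 CPM. Summed over the 10 hormones other than Gcg, the level went from 157 to 566 CPM in the libraries labelled mutant and from 168 to 1255 CPM in control epithelium.

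Genes of the secretory granule, which stores and processes hormones, were higher in 13 of 22, with none lower and a median of 1.31. As 4 of the 22 reached 5 CPM only at E14.5, those had to differ, and of the 18 already at 5 CPM at E12.5, 10 were higher (median 1.25). The granin Chgb stood at 110 CPM at E12.5 and 665 CPM at E14.5, 6.02-fold higher. Chga stood at 45.7 and 200.4 CPM, 4.39-fold higher. The processing enzymes Pcsk1 (14.2 to 36.7 CPM) and Cpe (156 to 371 CPM) were 2.59-fold and 2.38-fold higher, and Pcsk2 (24.7 to 48.3 CPM) was just inside the threshold at 1.95-fold. Scg2 went from 0.788 to 25.1 CPM.

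Genes of glucose sensing and mature beta-cell function did not move as a group. Of 10 measured, Sez6l2 was higher, Slc2a2 was lower and 8 were neither (median 0.17). Slc2a2, the glucose transporter of beta cells that is also expressed in early pancreatic progenitors, stood at 66.0 CPM at E12.5 and 18.5 CPM at E14.5, 3.56-fold lower, and in control epithelium at 60.9 and 12.1 CPM.

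Digestive enzyme transcripts were higher at E14.5 in the libraries labelled mutant. Of 38 listed genes 32 had a read, of which 27 were above and 5 below their E12.5 level, and 17 were measured. Of those 17, 16 were called higher and none lower (median 2.60), but 7 were measured only through E14.5. Of the 10 already at 5 CPM at E12.5, 9 were higher (median 1.58). Summed over the 38, the level went from 1755 to 5554 CPM.

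The lipase relative Pnliprp1 stood at 208 CPM at E12.5 and 1594 CPM at E14.5, 7.66-fold higher (7.38 to 7.96). Ctrb1, which encodes chymotrypsinogen, stood at 30.2 and 472 CPM, 15.6-fold higher (14.2 to 17.2). Cel, the bile salt activated lipase, stood at 47.1 and 212 CPM, 4.5-fold higher. Carboxypeptidase A1 (Cpa1), an early tip marker as well as an enzyme, stood at 698 and 1239 CPM, the measured enzyme short of the threshold at 1.78-fold (1.73 to 1.82). The elastase Cela1 stood at 67.0 and 178 CPM and the colipase Clps at 130 and 288 CPM. Amylase Amy2b had no read at E12.5 and stood at 29.4 CPM at E14.5, 149-fold higher against a floor of 3 counts (interval from 121). The endoplasmic reticulum protein Erp27 had none and 11.4 CPM, 57.9-fold higher against that floor (interval from 46.6). Amy2b and the trypsinogen Prss2 (15.2 CPM at E14.5) belong to families of near-identical copies, so their counts are uncertain.

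Promoters of 4 of these enzymes are shown because Rbpjl and its relative Rbpj bind the letters TGGGAA beside the E-box of Ptf1a. They are from RefSeq (GRCm38.p6, 250 bases before to 50 after the start, read along the gene), for Pnliprp1 at chr19:58728637-58728936 (plus strand), Cpa1 at chr6:30638968-30639267 (plus), Ctrb1 at chr8:111690961-111691260 (minus) and Cel at chr2:28563354-28563653 (minus). Capitals mark TGGGAA or its reverse complement TTCCCA.
Pnliprp1 promoter: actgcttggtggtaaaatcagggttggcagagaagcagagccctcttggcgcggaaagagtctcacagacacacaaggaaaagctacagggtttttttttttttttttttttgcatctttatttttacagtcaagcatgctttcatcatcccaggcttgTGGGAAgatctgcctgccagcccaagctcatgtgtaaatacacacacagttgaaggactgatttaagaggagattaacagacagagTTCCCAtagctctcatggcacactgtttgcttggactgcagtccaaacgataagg
Cpa1 promoter: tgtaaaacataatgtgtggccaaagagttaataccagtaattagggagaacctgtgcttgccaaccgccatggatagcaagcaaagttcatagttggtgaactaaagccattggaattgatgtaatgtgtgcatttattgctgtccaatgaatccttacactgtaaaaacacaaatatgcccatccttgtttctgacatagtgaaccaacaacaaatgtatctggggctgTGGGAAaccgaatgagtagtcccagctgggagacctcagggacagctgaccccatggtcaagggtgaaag
Ctrb1 promoter: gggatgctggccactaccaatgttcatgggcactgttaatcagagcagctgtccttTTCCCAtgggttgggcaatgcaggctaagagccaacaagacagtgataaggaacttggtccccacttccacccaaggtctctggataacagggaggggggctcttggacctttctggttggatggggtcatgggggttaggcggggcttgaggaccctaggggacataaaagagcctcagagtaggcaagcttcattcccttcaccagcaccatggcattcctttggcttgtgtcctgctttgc
Cel promoter: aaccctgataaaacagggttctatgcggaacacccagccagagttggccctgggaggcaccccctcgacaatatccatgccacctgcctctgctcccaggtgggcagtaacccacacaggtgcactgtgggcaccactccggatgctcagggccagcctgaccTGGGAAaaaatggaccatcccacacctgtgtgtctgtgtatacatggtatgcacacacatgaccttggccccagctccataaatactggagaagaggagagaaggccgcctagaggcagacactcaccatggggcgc
Of the 17 measured enzymes 12 had a promoter in the table, and 7 of those (58.3%) held TGGGAA on either strand, against 25.6% of all 32851 promoters. All 12 held CANNTG, against 72.3%, and 3 held CAGCTG, 1 form of CANNTG, against 16.3%. The 4 shown were those of the 12 with the highest CPM at E14.5 in the library labelled mutant, and a match is not a bound site.

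The factors that drive the enzymes, other than Bhlha15, had smaller ratios than most of the enzymes. Ptf1a stood at 45.3 CPM at E12.5 and 56.8 CPM at E14.5, and Rbpjl at 46.4 and 50.8 CPM, both neither higher nor lower. Nr5a2, a nuclear receptor that binds enzyme promoters with PTF1, stood at 16.4 and 9.48 CPM. Bhlha15 (Mist1), a bHLH factor of secretory maturation on chromosome 5 from 144190286 to 144194441, was the 1 of 6 called, at 5.06 and 47.0 CPM, 9.3-fold higher (7.33 to 11.9). Gata4 and Xbp1 were within 2-fold, and the median of the 6 was 0.31.

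**Figure D2:**
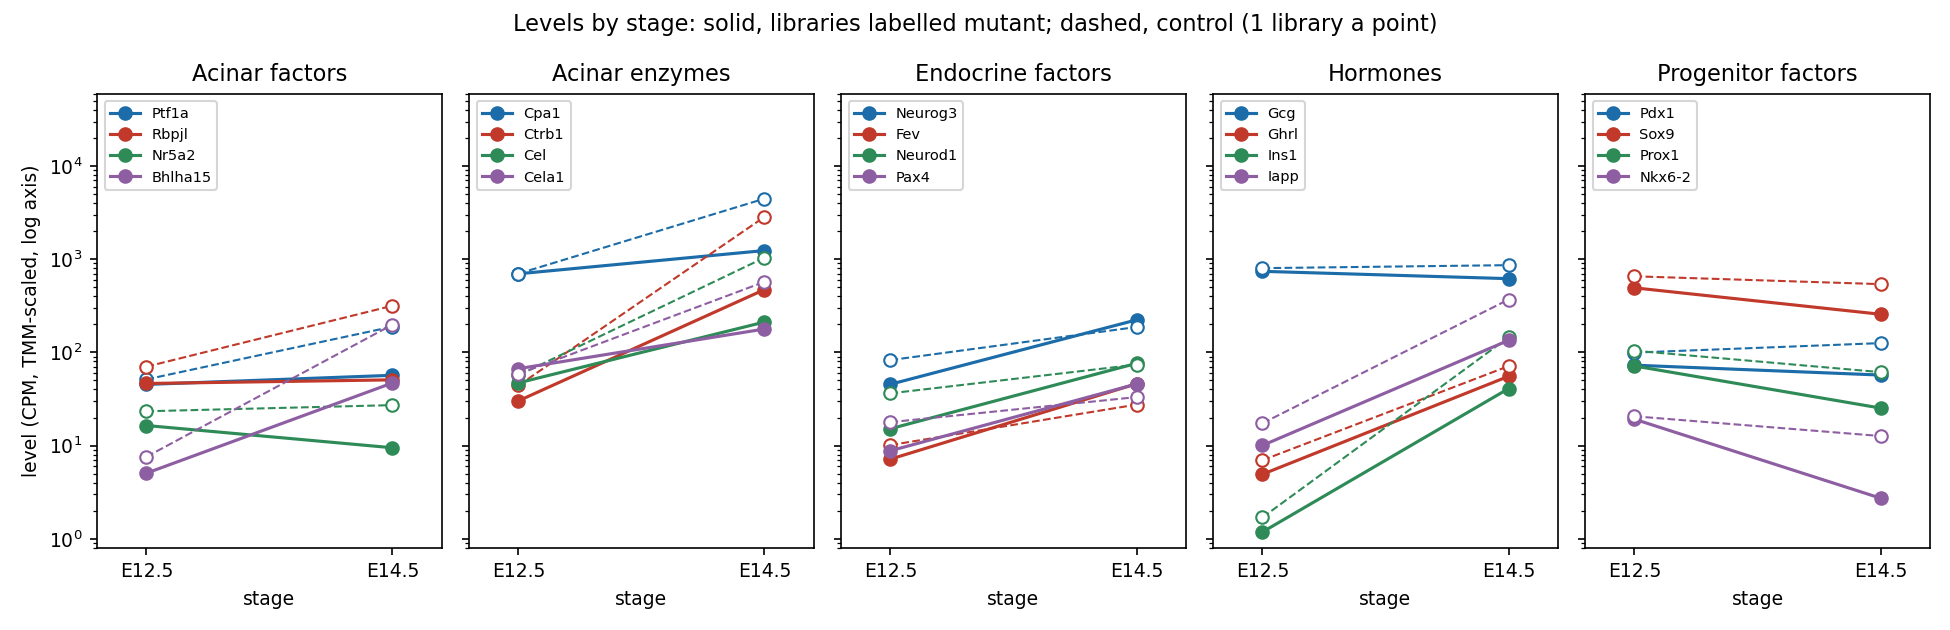
CPM of 4 genes from each of 5 groups (log axis) at E12.5 and E14.5, with filled points and solid lines for the libraries labelled mutant and open points and dashed lines for control epithelium, 1 library a point. Ptf1a and Rbpjl run near level in the libraries labelled mutant (45.3 to 56.8 and 46.4 to 50.8 CPM) and climb in control, while Neurog3 climbs in both and most in the libraries labelled mutant.

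Progenitor and trunk factors were lower or level. Of 17 measured progenitor factors 5 were lower and none higher (median -0.45). Prox1, a homeodomain factor of pancreatic progenitors, stood at 71.6 CPM at E12.5 and 25.3 CPM at E14.5, 2.83-fold lower. Onecut1 went from 61.0 to 22.6 CPM, Glis3 from 5.98 to 2.01 CPM and Nkx6-2 from 19.2 to 2.73 CPM. Sox9, the trunk regulator, stood at 493 and 257 CPM, 1.92-fold lower and just inside the threshold. Pdx1, which all pancreatic epithelium expresses early, stood at 72.9 and 57.2 CPM, and Nkx6-1 at 78.0 and 70.6 CPM.

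Ductal genes went the other way in part: of 21 measured 8 were higher, none was lower and the median was 0.67. Of the 18 already at 5 CPM at E12.5, 5 were higher (median 0.38), and the other 3 were measured through E14.5 alone. Keratin 19 (Krt19) stood at 57.4 CPM at E12.5 and 179 CPM at E14.5, 3.12-fold higher. The water channel Aqp1 stood at 3.75 and 15.7 CPM and clusterin (Clu) at 102 and 249 CPM, 4.2-fold and 2.44-fold higher. Spp1 (osteopontin), the most abundant of the list, stood at 984 and 1175 CPM. Several of these genes are also expressed outside ducts, such as Aqp1 in endothelium.

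Among 21 genes of the Notch pathway, by which neighbouring cells hold each other out of the endocrine fate, 5 were lower and 1 was higher (median -0.15). The lower ones were the receptors Notch1 (61.4 to 23.6 CPM), Notch2 (54.1 to 19.6 CPM), Notch3 (54.1 to 21.8 CPM) and Notch4 (5.45 to 1.65 CPM) and the ligand Jag1 (85.7 to 33.1 CPM). The ligand Jag2 was higher (1.84 to 5.96 CPM). The target gene Hes1 stood at 148 and 135 CPM and was not called. Notch3 and Notch4 are also known from blood vessels and their supporting cells.

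Genes shared by all epithelial cells gave a base line. Of 25 general epithelial genes 1 was higher, Krt19, none was lower and the median was 0.00, with sums of 3849 and 4355 CPM. Cell cycle genes held no call among 32 (median 0.03), and of 26 endoplasmic reticulum folding genes the chaperone Hyou1 was lower (44.7 to 19.0 CPM) and 25 were neither (median 0.17). Of 24 polarity and lumen genes 2 were lower, Inadl and Sytl2 (median -0.41). With plain CPM all ratios shift by -0.04 on the log2 scale, which takes the medians of the epithelial and cell cycle genes to the other side of 0.

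Many markers of cells outside the epithelium were also higher at E14.5. Summed over 29 general mesenchymal genes, the level went from 7257 to 13690 CPM in the libraries labelled mutant, and from 6329 to 6768 CPM in control epithelium. For comparison, the mutant mesenchyme at E12.5 held 11470 CPM. Of 27 measured, 8 were higher and 1 lower (median 0.58), with the proteoglycans Lum (20.2 to 287 CPM) and Dcn (110 to 463 CPM) among the higher. None of the measured members was at 0 at either stage.

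Smooth muscle and pericyte markers held 7 higher and 1 lower call among 13 (median 1.02), and their sum went from 570 to 996 CPM. Acta2, smooth muscle actin, stood at 97.8 and 287 CPM, and Myh11, the smooth muscle myosin, at 7.88 and 35.3 CPM. Of 14 neural and neural crest markers 6 were higher and none lower (median 0.67), with sums of 224 and 377 CPM; the glial factor Sox10 stood at 9.92 and 26.7 CPM. Of 16 factors of splanchnic mesenchyme 1 was higher and 2 were lower (median -0.44), and the sum of that list went from 1671 to 1287 CPM. Endothelial markers had a median of -0.44 (1 of 17 higher, 2 lower; sums 569 and 461 CPM). The part of these cells in the ratios of genes that they share with epithelium, among them the granule, ductal, Notch and endocrine factor lists, was not tested.

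The counts were repeated over genes at low levels in the E12.5 mesenchyme. Among the 550 measured genes under 1 CPM in both mesenchyme libraries, a limit chosen after the data were seen, 212 were higher (38.5%) and 80 lower. On that limit 14 of 14 digestive enzymes, 10 of 13 endocrine factors, 6 of 8 hormones and 8 of 10 granule genes were higher. These counts keep members that reached 5 CPM only at E14.5, which had to be above their E12.5 level. In the full lists those were 7 of 17 enzymes, 3 of 22 endocrine factors, 4 of 8 hormones and 4 of 22 granule genes. They were not counted apart on this limit. Of 10 progenitor factors 3 were lower, and of 12 general epithelial genes none was called. Of 4 ductal genes 1 was higher (median 0.00). The limit does not leave epithelial genes alone: 3 of 3 Hox genes and 2 of 2 smooth muscle markers on it were higher, and of 9 leukocyte markers 2 were higher and 5 lower.

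**Figure D3:**
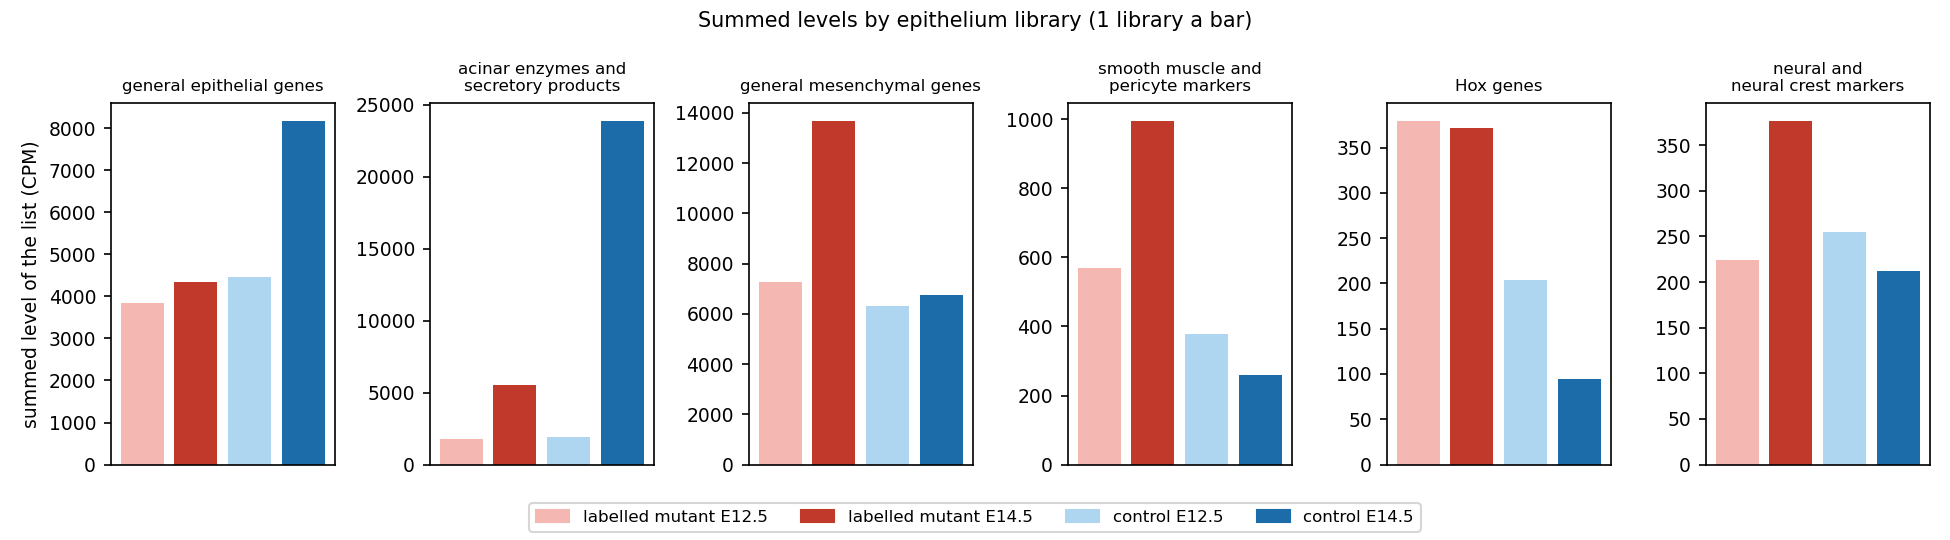
Summed CPM of 6 gene lists in the 4 epithelium libraries (1 bar a library, each panel with its own axis from 0). The mesenchymal sum was 13690 CPM in the E14.5 library labelled mutant against 6329 to 7257 CPM in the others, and the enzyme sum was 5554 CPM there against 23910 CPM in the E14.5 control.

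The same stages in control epithelium show where the transition differed in size. The 2 stage comparisons share no library. In control 792 of 12136 genes were higher (6.53%) and 1355 lower (11.2%). Of 681 genes higher in control and measured in both, 253 were higher in the libraries labelled mutant (37.2% of the control list and 42.5% of the 595 of the mutant list), 415 were neither and 13 were lower. Of 1262 genes lower in control, 282 were lower in the libraries labelled mutant (22.3%, and 43.9% of that list of 642), 946 were neither and 34 were higher.

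The difference of the 2 log2 stage ratios was taken gene by gene, and a gene was called where it passed 2-fold and its counting interval left out 0. Of 12550 genes 1399 were above control (11.1%) and 765 below (6.1%). Of the 25 general epithelial genes 22 had the smaller ratio in the libraries labelled mutant, with 5 called below control and none above. Their median was 0.60 in control and 0.00 in the libraries labelled mutant. Set relative to those medians, the difference moved up by 0.60 on the log2 scale for every gene, and 3451 were above (27.5%) and 267 below (2.13%). Both readings are given below for the main groups. The table of the E12.5 control epithelium carries a name of another form and date than the others, and what that difference stands for is not stated.

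Digestive enzymes had the smaller ratio in the libraries labelled mutant on both readings. Over the 17 enzymes the median was 2.60 there and 4.88 in control, and 13 were called below and none above. Relative to general epithelial genes the medians were 2.60 and 4.28, with 11 below. Ctrb1 went from 44.2 to 2845 CPM in control, so that its log2 ratio in the libraries labelled mutant was lower by a difference of -2.04 (-2.21 to -1.88). Pnliprp1 went from 267 to 7850 CPM in control, a difference of -1.94 (-2.01 to -1.88). At E12.5 the sums of the enzyme list were 1755 CPM in the library labelled mutant and 1944 CPM in control, and at E14.5 they were 5554 and 23910 CPM.

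Acinar factors were below control in 6 of 6 on the first reading (medians 0.31 and 1.69) and in 1 of 6, Rbpjl, relative to general epithelial genes. With plain CPM 4 of the 6 were below. Ptf1a went from 51.3 to 189 CPM in control, a difference of -1.55 (-1.73 to -1.37) that was -0.95 on the relative reading. For Bhlha15, which was higher at E14.5 in both genotypes, control levels were 7.58 and 199 CPM.

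Endocrine factors had the larger ratio in the libraries labelled mutant. Of the 21 measured in both, 9 were above control and none below (medians 0.63 and 0.45), and 13 were above on the relative reading. Neurog3 went from 82.8 to 187 CPM in control, a difference of 1.12 (0.97 to 1.26), and Pax4 from 17.9 to 33.2 CPM, a difference of 1.49 (1.16 to 1.82). In both cases the library labelled mutant started lower at E12.5 and ended higher at E14.5. Of 13 endocrine progenitor genes 5 were above and none below (medians 1.38 and 0.49), 7 on the relative reading. Neural markers, some of which endocrine cells also transcribe, were above control in 8 members and below in none, and their part in these counts was not tested.

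Hormones and granule genes differed less. Hormone medians were 3.62 and 3.88, with Ins1 and Sst called below control and none above, and none either way relative to general epithelial genes. The call of Sst rests on 1 count in control and 5 counts in the library labelled mutant at E12.5. Its difference was -3.50 (-6.61 to -0.38), and the Poisson interval is approximate at such counts. Ins2, at 0.848 and 405 CPM in control, had a difference of -1.13 with an interval that reached past 0 (-2.33 to 0.08). Granule medians were 1.37 and 1.34 over 21 genes, with Scg5 below and Scg2 and Slc18a2 above. Relative to general epithelial genes 6 were above and none below.

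Of 17 progenitor factors 3 were below control, among them Nkx6-2, which alone was below on the relative reading; progenitor medians were -0.45 and -0.23. Ductal medians over 18 genes were 0.38 and 0.86, with Muc1 and Clu called below and none above, whereas relative to general epithelial genes none was below and Pkd2 and Anxa5 were above. Over the Notch list the medians were -0.15 and -0.49, with 5 above and 2 below, and 9 above and none below on the relative reading. Folding genes of the endoplasmic reticulum had medians of 0.17 and 0.70, with 4 of 26 below, and with 2 below and 1 above on the relative reading.

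**Figure D4:**
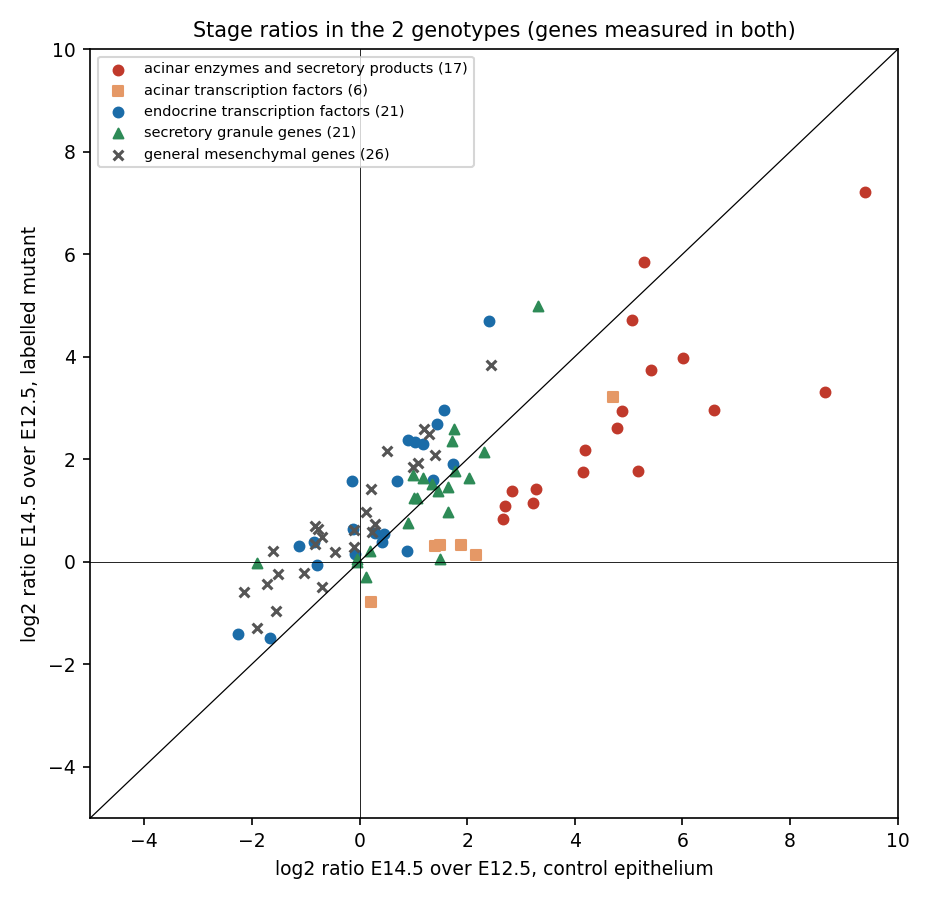
Log2 stage ratio (E14.5 over E12.5) in the libraries labelled mutant (vertical axis) against control epithelium (horizontal axis) for genes measured in both, 1 point a gene, with the diagonal marking equal ratios. Of the 17 digestive enzymes 16 lie below the diagonal and Erp27 above it (medians 2.60 and 4.88), and general mesenchymal genes mostly above it (medians 0.60 and -0.27).

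Non-epithelial markers were above control as well. General mesenchymal genes had medians of 0.60 and -0.27 over 26 genes, with 13 above and none below, and 23 above on the relative reading. Smooth muscle markers had medians of 0.51 and -0.85 over 10 genes, with 5 above, or 7 on the relative reading. Neural markers had medians of 0.67 and -0.78 over 12 genes, with 8 above, or 10 on the relative reading. The medians of the splanchnic factors were below 0 in both genotypes, at -0.46 and -1.71 over 15 genes.

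The largest increases by the interval bound nearer to 1, among genes at 10 CPM or more, mixed lineages. Cma1 and Tpsb2, proteases of mast cells, had no read at E12.5 and stood at 57.4 and 48.6 CPM at E14.5. Against a floor of 3 counts they were 291-fold and 246-fold higher (intervals from 236 and 200). Both were also higher in control epithelium, Cma1 from 3.72 to 24.4 CPM and Tpsb2 from no read to 32.1 CPM. Next by size came Amy2b, Ins2, Vip (a gut neuropeptide), Actc1 (a muscle actin), Aspn (a matrix proteoglycan), Erp27, Serpina1e and Ube2ql1. The largest decreases were those of Ltf, Trim6, Zmat4, Eno1b, Ngp, Prg2, Fgg, S100a9, Tcf24 and Atp7b. Ltf, Ngp and S100a9 are neutrophil genes. Serpina1e belongs to a family of near-identical copies and Eno1b shares sequence with Eno1, so the counts of both are uncertain.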

How the data were processed

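RNA from pooled sorted cells was sequenced in 6 libraries, 1 per group, per the labels' protocols. The authors deposited raw counts per gene, as whole numbers under gene symbols, for each library, and the file names call them deduplicated, which lowers the counts of abundant genes. Per the submitters' processing notes mm10, Cufflinks 2.2.1 and Cuffdiff 2.2.1 were used; aligner, annotation and strand setting were not given in the sources used here. Each table's 5 summary lines were kept out of totals: they held 4.69% to 8.84% of reads as no feature, 1.53% to 1.72% as ambiguous and 13.72% to 20.05% as not unique.

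Counts were scaled to CPM with TMM factors over all 6 libraries (0.941 to 1.047) from edgeR 4.0.16 in R 4.3.3. Ratios and exact conditional binomial (Clopper-Pearson) 95% intervals were computed with scipy 1.17.1, pandas 2.3.3 and numpy 2.4.6 in Python 3.11.15, and figures with matplotlib 3.10.9. No molecular identifiers are named, so a count is a read and not a molecule, and every interval and floor covers counting error alone. A library with 0 counts was given 3, and the fold then depends on that floor and is not a lower bound. Differences between genotypes used a Poisson interval, and genes with a 0 in any of the 4 libraries were not called. Medians need 3 measured members. The calculation was tested on simulated data.

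The members and lists were chosen with earlier results of these data known. Named genes were the preset markers, up to 4 members of a list, and the 10 genes with the largest fold in each direction at 10 CPM or more; those beyond this were chosen after their values were seen. Positions come from GENCODE M21. Alternatives were DESeq2 1.42.0 size factors, plain CPM, ratios relative to general epithelial genes, thinning, 1.5-fold and 4-fold thresholds, no filter or one of 1 or 20 CPM, and genes under 1 CPM in mesenchyme. Some items of the genotype and the gene lists are not reported here.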

Additional observations from a re-analysis of the deposited data

Results flagged for a closer look

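Several stage ratios went one way in the libraries labelled mutant and the other way in control epithelium. With 1 library a group these differences were not tested. The median log2 ratio of general mesenchymal genes was higher by 0.87 in the libraries labelled mutant, that of smooth muscle and pericyte markers by 1.35 and that of neural and neural crest markers by 1.45. Mylk, the myosin light chain kinase of smooth muscle, differed by 2.87 (9.33 to 31.7 CPM in the libraries labelled mutant, 9.89 to 4.59 CPM in control), and Synpo2, an actin-binding protein of smooth muscle, by 3.002 (3.09 to 6.25 CPM, against 8.95 to 2.26 CPM).

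Serpina1e differed by 9.34: it went from 0.197 to 26.4 CPM in the libraries labelled mutant and from 48.1 to 9.93 CPM in control. Eno1b differed by -6.67. Both share sequence with near-identical genes, so their counts are uncertain.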

How the results depend on the processing

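No paired analysis was possible because the labels give 1 library per group and no replicate numbers, and no library could be left out. Of the 32 preset genes, Epcam, whose log2 ratio lay just above 0, changed sign with plain CPM. The ratios of preset genes called higher or lower kept their sign under the alternatives run. Over genes and settings, 312 values kept their side of the threshold, 8 passed it only under the alternative and 4 no longer did. Balances did turn: higher and lower calls were 718 and 781 with plain CPM, and some list medians crossed 0, those of epithelial (-0.04) and cell cycle genes (-0.01) with plain CPM, of Hox genes (-0.10) and hepatocyte markers (0.03) at 20 CPM, and of beta-cell (-0.12), epithelial (-0.09), leukocyte (-2.35) and neural genes (-0.11) under the mesenchyme limit. With DESeq2 size factors and with thinning the calls stayed within 1.5 times. The 763 higher and 717 lower calls became 1486 and 1286 at 1 CPM, 323 and 340 at 20 CPM, 1783 and 1576 with no filter, 1566 and 1813 at 1.5-fold, 211 and 99 at 4-fold, and 212 and 80 among genes under 1 CPM in mesenchyme. The difference from control, 1399 above and 765 below, became 3451 and 267 relative to general epithelial genes, 664 and 414 at 20 CPM, 2554 and 1854 at 1.5-fold, 324 and 151 at 4-fold, and 127 and 179 among genes under 1 CPM in mesenchyme. With plain CPM 73.1% of the differences were above, against 64.6%, and 92.8% relative to epithelial genes. The 16 higher enzymes became 9 at 20 CPM and 10 at 4-fold, the 5 lower progenitor factors 3 at 20 CPM, 8 at 1.5-fold, 1 at 4-fold and 3 under 1 CPM in mesenchyme, and the 11 higher endocrine factors 7 at 20 CPM and 6 at 4-fold. The 13 higher granule genes became 4 at 4-fold and 8 under 1 CPM in mesenchyme. The mesenchyme limit also changes which genes are counted: the share of higher calls went from 51.6% to 72.6%, and that of differences above control from 64.6% to 41.5%. The relative scale acts by its shift of 0.60. Depth limits genes near 5 CPM, and pools without replicates limit all of them.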

Other observations

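Leukocyte markers moved in opposite directions within their list. The 5 neutrophil granule genes Ltf, Ngp, Camp, S100a8 and S100a9 were all lower at E14.5, from a sum of 96.3 CPM to 5.31 CPM in the libraries labelled mutant, against 212 and 185 CPM in control epithelium. The 9 macrophage genes went from 174 to 372 CPM, against 278 and 253 CPM in control. Among them the complement genes C1qa, C1qb and C1qc were 2.2-fold, 2.26-fold and 2.37-fold higher. The mast cell protease Cpa3, at 9.86 and 97.5 CPM, was 9.9-fold higher. It was also higher in control epithelium, at 15.3 and 50.1 CPM (3.29-fold).

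Posterior Hox genes, normally active in the hind part of the body, had reads in the E14.5 library labelled mutant. The 16 genes of paralogue groups 9 to 13 summed to 26.5 CPM there and to 1.71 CPM at E12.5, against 1.18 and 0.411 CPM in control epithelium and 0.335 to 0.707 CPM in mesenchyme. Hoxd13 and Hoxb13 had no read at E12.5 and stood at 5.82 and 5.53 CPM at E14.5. Against a floor of 3 counts they were 29.5-fold and 28.1-fold higher, and these folds are not lower bounds. The 23 genes of groups 1 to 8 went from 378 to 349 CPM.

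A few genes of skeletal muscle and gut reached 5 CPM only in the E14.5 library labelled mutant or in both E14.5 libraries. Of 15 skeletal and cardiac muscle markers 10 were not measured and 3 were higher, and of 15 gut markers 13 were not measured and 2 were higher, all 5 of them measured through E14.5 alone. The gut list summed to 8.34 and 23.7 CPM, and in control epithelium to 9.94 and 19.5 CPM. The myogenic factor Myod1 went from no read to 7.18 CPM and Myog from 0.0657 to 5.46 CPM, and the intestinal cadherin Cdh17 from no read to 5.75 CPM. Of 23 immediate early and heat shock genes, which respond to handling, 7 were higher and none lower (median 0.54, against 0.71 in control), with Fos at 250 and 588 CPM. Of 6 hepatocyte markers 3 were lower, among them Afp (96.5 to 41.0 CPM).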
